A study of Mus musculus with 12 samples.

Results

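The transcriptome of cultured mouse microglia that had met only vehicle was described from 4 RNA libraries, those labelled with vehicle as their treatment, out of 12 in the study. The study asked how microglia respond to neurofilament light chain (NfL), a structural protein of axons. Its other 8 libraries came from cells given 5 µg of full-length or of coiled-coil NfL, and served here only to test which genes differed between batches. All groups shared 1 background: wild-type C57BL/6 pups killed at postnatal day 1 to 2. Whole brains were dissociated with trypsin, and mixed cells grew in flasks for 10 to 13 days in medium with 10% fetal bovine serum and antibiotics. Microglia were shaken off for 2 h and plated at 50000 cells per well with serum and 2.5 ng of CSF1, the growth factor that binds the receptor CSF1R. They were used 2 to 4 days later and received vehicle for 24 h. What the vehicle contained, the sex of the pups and whether the brains of several pups were pooled were not given in the sources used here. Each of the 4 libraries carried its own batch label, b1 to b4 for replicates 1 to 4, and each batch also held 1 library of either NfL form. Nothing in the labels says that batches were separate litters or cultures, so spreads and p-values measure only the differences between these samples, which may be technical.

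Microglia are the resident macrophages of the brain and stem from precursors that enter it early in development. They depend on signals through CSF1R, and TGF-beta signals and contact with the healthy brain keep up a set of genes called homeostatic, which is known to be lost in part when the cells grow in a dish with serum. Macrophages in general are rich in lysosomal proteases, complement component C1q and receptors for microbes, antibodies and lipids, and the factor PU.1 (gene Spi1) binds many of their regulatory regions.

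The libraries held 22796052, 22595657, 26129375 and 21370879 counts for replicates 1 to 4, and between 19519 and 20280 genes had at least 1 count. Levels are given as CPM, a gene's counts per 1000000 counts of its library, scaled with TMM factors that correct for differences in library makeup. To compare genes with each other, the mean CPM was divided by the kilobases of a gene's annotated exons, a level per length written RPKM, and genes were ranked by it among 21896 protein-coding genes. Taking the length of the longest transcript in place of all exons raises some of these levels (Ptprc most among the genes described, by 3.19-fold). Orders per length are by all exons unless the longest transcript is named, and some of them turn with that choice. A count of 0 in a library allowed a level of up to 0.121 to 0.134 CPM (3 counts, counting error only). Genes with near-identical copies elsewhere are uncertain: Gapdh, with 223 partner genes that share a stretch of 50 bases, had 0, 0.0433, 0.0806 and 0 CPM, and 83 genes of cytosolic ribosomal proteins held 0.293% of the counts together. Yet 74.9% of the windows of 50 bases of Gapdh, and a median of 76.5% for the ribosomal genes, occur in no other gene, and why the counts are near 0 was not tested. Copies may also touch the mitochondrial genes, where mt-Co2 (no window of 50 bases unique to it) had 1.91 CPM in mean and mt-Cytb (all windows unique) 921 CPM.

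The label was checked on 5 marker genes, all present in every library. Lyz2, the lysozyme of myeloid cells (ENSMUSG00000069516, chromosome 10, 117277331 to 117282321; GRCm38, as are all positions here), had 62774, 31091, 42365 and 35335 CPM in replicates 1 to 4 and ranked 1 per length. Replicate 1 stood highest, and Lyz2 alone took 6.17% of its counts against 3.18% to 4.03% in the other libraries. Apoe (ENSMUSG00000002985, chromosome 7, 19696109 to 19699188), the main lipid carrier of the brain, had 14342, 17226, 19587 and 16808 CPM and ranked 2. Csf1r, the receptor for the growth factor in the medium, had 4569, 3782, 4297 and 3441 CPM and ranked 32. Trem2 (ENSMUSG00000023992, chromosome 17, 48346401 to 48354147), a lipid-sensing receptor of microglia, lay close together over the libraries, at 644, 728, 689 and 712 CPM, and ranked 200. P2ry12 (ENSMUSG00000036353, chromosome 3, 59216272 to 59262871), the ADP receptor that marks microglia of the healthy brain, was far lower at 31.5, 37.3, 64.4 and 37.5 CPM, with replicate 3 highest, and ranked 2559. Per length, Trem2 (140.2 RPKM) was above P2ry12 (16.8 RPKM), and both were above the median of all protein-coding genes (0.336 RPKM) and of those with at least 1 CPM (6.05 RPKM).

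A few genes of lysosomes, lipid handling and immune defence took a large share of the counts. Shares and ranks are of the deposited counts, where Gapdh and the ribosomal protein genes are nearly absent. Whether that raises the shares of other genes was not tested. The 10 genes with the highest mean held 13.3 ± 1.08% of the counts (mean ± SD, n = 4, as for every ± here) and the highest 100 held 27.9 ± 1.01%. Of the mean CPM, 70 genes held the first 25%, 629 genes 50% and 4716 genes 90%. At least 1 CPM was reached by 12642 genes and at least 100 CPM by 2132. Among protein-coding genes, 51.6% reached 1 CPM, 37.3% reached 10 CPM and 9.65% reached 100 CPM, the shares against which the gene lists can be read.

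By CPM, Lyz2 (42891 ± 14047) was followed by the lysosomal protease Ctsb (22188 ± 1955), Apoe (16991 ± 2148), the secreted phosphoprotein osteopontin Spp1 (12748 ± 2146) and the protease Ctsd (10618 ± 478). Next came the pore-forming Mpeg1, the lipase Lpl, the saposin precursor Psap, the glycoprotein Gpnmb and the inhibitory receptor Sirpa, with means of 4309 to 7393 CPM. Per length, short transcripts moved up: B2m, the light chain of MHC class I, ranked 5, the protease Ctss 7, the actin-binding Tmsb4x 8, the C1q chains C1qa, C1qb and C1qc 9, 10 and 14, and the signalling adaptor Tyrobp 13. The order at the top was wider than the spread for Lyz2, whose lowest library (23625 RPKM) was above the highest library of any other gene. Apoe (6708 to 9161 RPKM) and Spp1 (6561 to 9579 RPKM) overlapped, with Spp1 above Apoe in replicate 1 and below it in the other 3 libraries. By the longest transcript Apoe was at 12067 RPKM and Spp1 at 8459 RPKM. Fth1, the ferritin heavy chain, varied most among these genes, at 6660.1, 2596, 4457 and 3283 CPM.

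**Figure D1:**
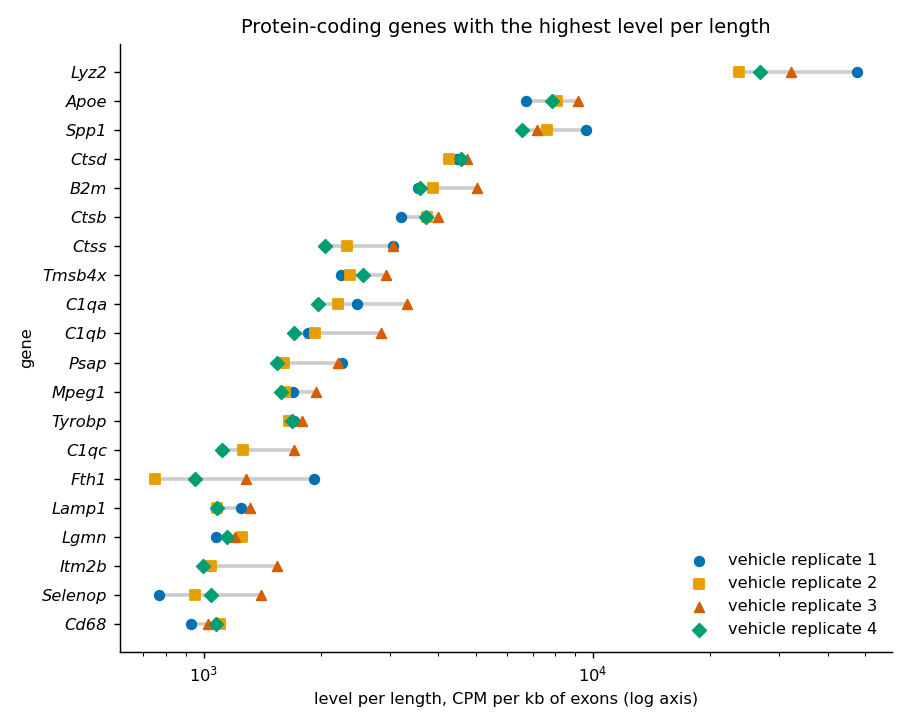
Level per length (CPM per kb of exons, log axis) of the 20 protein-coding genes that ranked highest by it, 1 symbol per vehicle library. The symbols of Lyz2 lie apart from all others, and those of Apoe and Spp1 overlap; the genes after rank 15 are shown for context only.

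Of the 100 protein-coding genes with the highest level per length, 17 were in a list of 25 genes shared by tissue macrophages and 17 in a list of 35 lysosomal genes. A list of 30 genes of the disease-associated state gave 11, that of 40 homeostatic microglial genes 10, complement 6 and type I interferon genes 5. The lists share members (Ctsb, Ctsd and Ctss are in several), so these counts do not add up. None of the 100 was in the lists of transcription factors, nuclear receptors included, nor among the inflammatory mediators or the genes of the cell cycle.

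The homeostatic list was spread over the whole range of levels. Some receptors that mark microglia of the healthy brain, P2ry12 among them, lay far below its leading genes, while Cx3cr1 and Fcrls were high. Of its 40 genes, 34 had at least 1 CPM and 21 at least 100 CPM, with a median of 22.04 RPKM against 6.05 RPKM for all protein-coding genes of at least 1 CPM. At the upper end stood genes that other macrophages also use: Ctss, the C1q chains, the protease inhibitor Cst3 and Csf1r. Cx3cr1, the receptor for the neuronal chemokine fractalkine, kept a high level at 922, 1299.8, 1217 and 1553 CPM, with replicate 1 lowest. Gas6, a ligand of phagocytic receptors, had 872, 1121, 1251 and 1178 CPM, and Fcrls, an Fc receptor-like scavenger receptor, had 588, 1020.2, 1514 and 914 CPM with the libraries of replicates 1 and 3 furthest apart.

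Several other receptors and regulators of the homeostatic list came lower than Cx3cr1 and Fcrls. Gpr34 had 24.9, 43.3, 51.2 and 57.9 CPM, and P2ry13, a second ADP receptor, had 34.7, 34.3, 55.1 and 32.4 CPM and was highest in replicate 3 as P2ry12 was. Tmem119, a membrane protein of mature microglia, had 21.1, 7.57, 10.8 and 8.14 CPM. Its level in replicate 1 was above that of the other libraries, which lay between 7.57 and 10.8 CPM. Sall1, a repressor that upholds microglial identity, had 23.7, 21.1, 15.02 and 20.6 CPM and ranked 6980, and its relative Sall3 had 18.4, 16.1, 7.17 and 19.9 CPM, both lowest in replicate 3. Slco2b1, an organic anion transporter, had 16.1, 80.4, 39.4 and 76.4 CPM, where replicates 2 and 4 were alike and replicate 1 was lowest. Siglech, a sialic acid-binding lectin, had 1, 0, 2 and 2 counts in the 4 libraries, at or under the floor of 3 counts. Upk1b had no count in any library, and Crybb1, Ecscr, Slc2a5 and Lag3 were also under 1 CPM in mean.

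**Figure D2:**
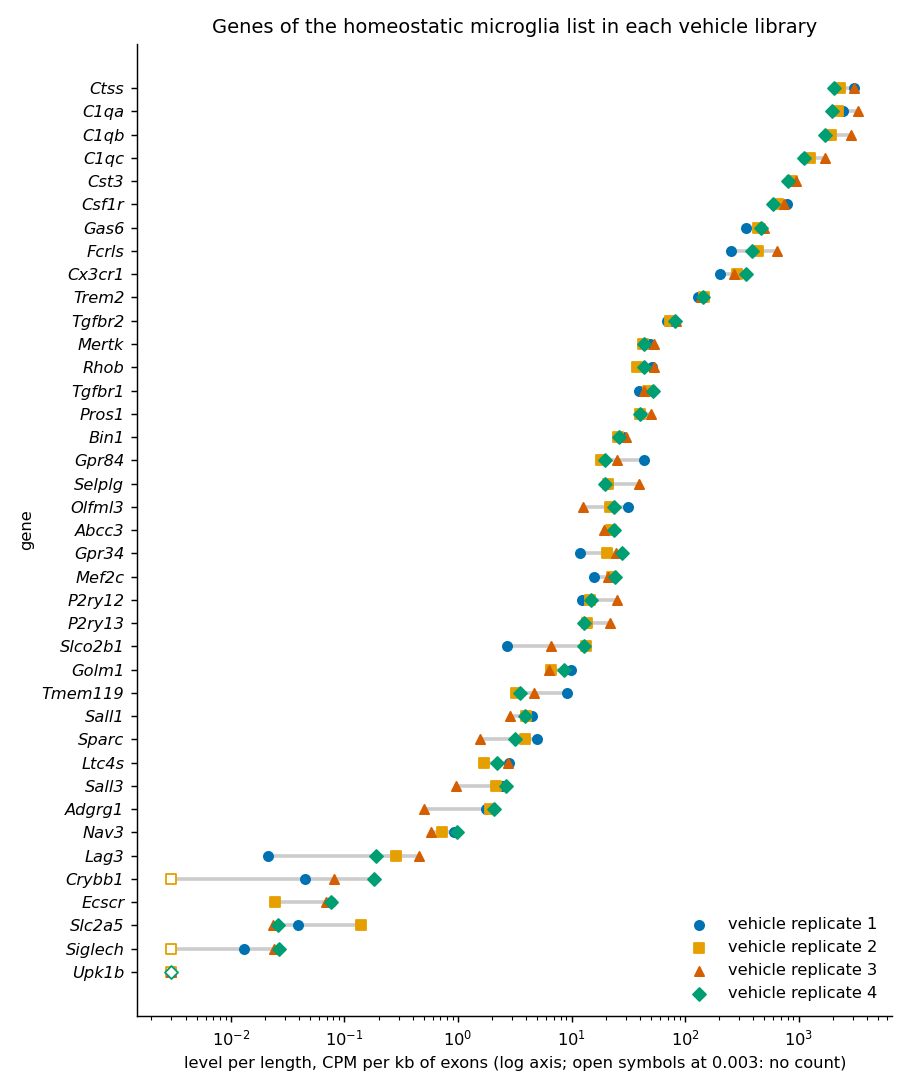
Level per length (CPM per kb of exons, log axis) of 39 of the 40 homeostatic microglial genes in each vehicle library, ordered by their mean; open symbols mark libraries with no count. Levels run from Ctss at 2629.8 RPKM to Upk1b with no count, with P2ry12 at 16.8 and Tmem119 at 5.15 RPKM.

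All 25 genes shared by tissue macrophages had at least 100 CPM, with a median of 649 RPKM. Beside the proteases they included Tyrobp (1138 ± 37.6 CPM), the Fc receptor gamma chain Fcer1g (670.0 ± 71.1 CPM), the scavenger receptor Cd68 (1298 ± 95.5 CPM) and the adhesion receptor F4/80, Adgre1 (2217 ± 175 CPM). Tyrobp, at 1136, 1102, 1190.0 and 1124 CPM, was among the steadiest of them. The lipopolysaccharide coreceptor Cd14 had 1752, 965, 915 and 862 CPM and was highest in replicate 1. Aif1, which encodes the stain IBA1, had 139, 138, 237 and 120.4 CPM and was highest in replicate 3, and the mannose receptor Mrc1 was also highest there, at 667, 754, 1195 and 673 CPM. Itgam, the chain CD11b, had 319 ± 79.8 CPM, with 33.7% of its windows of 50 bases found in no other gene, and the leukocyte phosphatase Ptprc had 624 ± 93.7 CPM.

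Of the factors that build the macrophage program, Spi1 stood highest per length by all exons, and Nfe2l2 (182 RPKM) above Spi1 (169 RPKM) by the longest transcript. The list of microglial and myeloid transcription factors held 74 genes, of which 66 had at least 1 CPM and 31 at least 100 CPM, with a median of 12.5 RPKM. Spi1 had 339, 328, 399 and 311 CPM (128 RPKM, rank 232), with little difference between libraries. The interferon regulatory factor Irf7 was close behind per length (121 RPKM) but had 265, 504, 797 and 255 CPM, so that its libraries differed by more than its distance from Spi1. Klf6 (119 RPKM), the antioxidant factor Nfe2l2 (119 RPKM), and Irf5 (101 RPKM) followed, with the lineage factors Cebpa at 88.7 and Maf at 79.2 RPKM. Irf8, which microglia need for their development, had 217, 247, 303 and 254 CPM (36.2 RPKM), Runx1 211 ± 26.8 CPM (17.6 RPKM), Mef2c 328 ± 59.8 CPM (20.9 RPKM) and Cebpb 58.1, 24.5, 43.4 and 23.7 CPM, higher in replicates 1 and 3. By the longest transcript, Irf8, Runx1 and Mef2c were at 73.5, 36.0 and 52.3 RPKM. Zeb2, a zinc finger factor of myeloid cells, had 738, 697, 727 and 716 CPM, nearly the same in all libraries. Gata6, the factor of peritoneal macrophages, had 1 count in replicate 4 and none elsewhere.

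Letters bound by PU.1 were searched for as GAGGAAG on both strands of the 250 bases before the start of each gene, in RefSeq promoters of GRCm38.p6. They were found in 12.0% of 27025 genes, in 6 of the 20 macrophage core genes with a promoter in that table and in 8 of the 27 homeostatic genes. Of the 100 genes highest per length, 71 had a promoter there and 14 of these held the letters. Windows from Trem2 (chr17:48346330-48346396, plus strand), the lysosomal membrane protein gene Laptm5 (chr4:130913247-130913313, plus strand) and Spp1 (chr5:104434968-104435034, plus strand) show where they lie, written 5′ to 3′ along the gene with the match in capitals. In Trem2 and Laptm5 the match reads on the other strand, as CTTCCTC.
Trem2: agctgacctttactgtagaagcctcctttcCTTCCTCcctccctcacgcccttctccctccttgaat
Laptm5: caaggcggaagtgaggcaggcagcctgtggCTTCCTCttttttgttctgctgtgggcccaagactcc
Spp1: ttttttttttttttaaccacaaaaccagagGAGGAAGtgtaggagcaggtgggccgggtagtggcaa
A match is a description of these letters and not a measured site of binding. Levels of the 3 genes differed widely, with Spp1 at 7736, Laptm5 at 571 and Trem2 at 140.2 RPKM.

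Factors that answer to signals were present at middle levels. Of 70 such genes, 64 had at least 1 CPM and the median was 10.2 RPKM. The stress factor Atf3 led with 227, 277, 237 and 270.0 CPM (117 RPKM), followed by Stat2 (83.3 RPKM), Stat6 (69.4 RPKM) and the immediate early gene Fos, which had 227, 148, 99.2 and 158 CPM and was lowest in replicate 3. Other immediate early genes ranged from Klf6 at 524 ± 31.5 CPM and Junb at 138 ± 24.0 CPM down to Fosb at 0.579 ± 0.325 CPM. Among 31 nuclear receptors, 23 had at least 1 CPM and 2 had at least 100 CPM: the retinoid X receptor Rxra (255 ± 32.1 CPM) and the glucocorticoid receptor Nr3c1 (241 ± 20.6 CPM). The lipid receptor Pparg had 13.8, 42.9, 25.8 and 34.8 CPM, with replicate 1 lowest.

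Receptors for antibodies and microbes were well represented. Of 9 Fc receptor genes 8 had at least 10 CPM, among them Fcgr3 (788 ± 156 CPM), Fcgr1 (586 ± 189.6 CPM), the inhibitory Fcgr2b (523 ± 92.2 CPM) and Fcgr4, which had 68.3, 156, 229.8 and 82.0 CPM; Fcer2a had 1 count in replicate 2. Among 15 toll-like receptors and their partners, 12 had at least 10 CPM. Cd14 ranked highest per length (649 RPKM). The others among the first 5 were Tlr7, a sensor of single-stranded RNA (540.4, 803, 861 and 684 CPM), the lipoprotein sensor Tlr2 (564, 330.2, 461 and 326 CPM), Tlr13, a sensor of bacterial ribosomal RNA (459.9, 661, 583 and 672 CPM), and Cd180 (368, 698, 636 and 617 CPM). Tlr2 was highest in replicate 1, where Tlr7, Tlr13 and Cd180 were lowest. Tlr11 was under 1 CPM in every library.

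Among receptors for chemoattractants and nucleotides, the complement fragment receptor C3ar1 led, followed by Cx3cr1 and another complement fragment receptor, C5ar1. C3ar1 had 2302, 3111, 2591 and 2743 CPM (624 RPKM), Cx3cr1 277 RPKM and C5ar1, at 548, 622, 664 and 589 CPM, 236 RPKM. Cxcr4 (133 ± 22.2 CPM) and the chemerin receptor Cmklr1 (169 ± 39.7 CPM) came next, whereas Ccr2, the receptor of circulating monocytes, had 3.35, 2.68, 3.87 and 2.24 CPM and Cxcr1 no count. Of 16 purinergic receptors, 5 had at least 10 CPM. Per length these were P2ry6, the UDP receptor that drives uptake of debris (64.8 RPKM), the ATP-gated channels P2rx4 (56.3 RPKM) and P2rx7 (25.3 RPKM), then P2ry12 (16.8 RPKM) and P2ry13 (15.5 RPKM). The libraries of P2ry12 and P2ry13 overlapped, and so did those of P2ry6 and P2rx4, whose order turned by the longest transcript. The adenosine receptor Adora2b was low and uneven, at 9.46, 2.12, 3.59 and 1.30 CPM.

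Of 42 receptors for growth factors and cytokines 36 had at least 1 CPM, with a median of 21.1 RPKM. After Csf1r (697 RPKM) came, by all exons, the tumour necrosis factor receptor Tnfrsf1b (604, 399, 498 and 379 CPM; 123 RPKM), Ifngr1 (96.0 RPKM), Tnfrsf1a (78.2 RPKM) and Tgfbr2 (568, 608, 677 and 661 CPM; 76.8 RPKM). The other chain of the TGF-beta receptor, Tgfbr1, had 259, 305, 282 and 342 CPM, and the ligand Tgfb1 217, 183, 226 and 189 CPM. Of the ligands of CSF1R, Csf1 had 10.8, 13.4, 15.4 and 8.76 CPM and Il34 0.0649 CPM in mean. Csf2 had no count in any library, and the decoy receptor Il1r2 none either.

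Paired and lectin-like receptors included the inhibitory Sirpa (4309 ± 249 CPM), which binds CD47, and the C-type lectins Clec4d (945, 379, 534 and 401 CPM), highest in replicate 1, and Clec7a, the beta-glucan receptor Dectin-1 (431, 584, 523 and 624 CPM), lowest in replicate 1. Of 36 such genes 31 had at least 1 CPM, and Siglecg had no count. The scavenger receptors Stab1 (2830.1 ± 369 CPM), Cd36 (498, 1102, 602 and 1013 CPM), Lrp1 (2743 ± 496 CPM) and Mrc1 were among 14 of 25 uptake receptors with at least 100 CPM. Cd36 was higher in replicates 2 and 4 than in the other libraries. Marco, a scavenger receptor of activated macrophages, had 473, 27.8, 124 and 44.8 CPM, the widest relative spread of that list. Of 25 integrins and adhesion genes 15 had at least 100 CPM, led per length by Itgb1 (779 ± 27.4 CPM), the tetraspanin Cd9 (371 ± 58.9 CPM; first by the longest transcript) and Itgb2 (806, 422, 531 and 429 CPM). Receptors for neurotransmitters and other ligands coupled to G proteins reached 10 CPM for 19 of 50, near the share of all protein-coding genes, with a median of 0.804 RPKM. The proton sensor Gpr65 (169 ± 29.02 CPM) and the sphingosine phosphate receptors S1pr1 (143 ± 10.5 CPM) and S1pr2 (247 ± 29.4 CPM) followed Adgre1.

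Secreted products were uneven in level. Complement genes ran from C1qa, C1qb and C1qc, at 2044 to 3469, 1854 to 3112 and 2152 to 3284 CPM, down to 3 of 22 under 1 CPM. C4b had 0.758, 1.38, 3.34 and 0.447 CPM, a mean of 1.48 CPM that was 0.878 CPM without replicate 3. Properdin, Cfp, had 661, 307, 652 and 248 CPM, with replicates 1 and 3 above replicates 2 and 4. Among 23 chemokines, Ccl9 (921, 723, 906 and 582 CPM; 257 RPKM), Ccl4 (71.7, 154, 172 and 129.8 CPM; 200.1 RPKM) and Ccl3 (131, 136, 139 and 132 CPM; 176 RPKM) stood highest per length, and Ccl17 had no count. Ccl3 was nearly the same in all libraries, and Ccl4 was lowest in replicate 1. Trophic factors other than Spp1 included the progranulin gene Grn (3210.2 ± 658 CPM) and Igf1 (2116, 2144, 1981 and 2244 CPM). Among proteases and their inhibitors, Cst3 (1097 ± 84.2 CPM), Adam8 (1423 ± 116 CPM), Timp2 (597 ± 74.5 CPM) and Adam9 (597 ± 46.3 CPM) led, and the tissue plasminogen activator Plat had 0.659 ± 0.481 CPM.

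Classical inflammatory mediators ranged from almost no counts to moderate levels. Of 20, 9 had at least 10 CPM and 1 at least 100 CPM, against 37.3% and 9.65% of all protein-coding genes. Their median of 2.67 RPKM lay above that of all protein-coding genes (0.336 RPKM). It lay below that of protein-coding genes with at least 1 CPM (6.05 RPKM). The gene of at least 100 CPM was Tgfb1, which restrains inflammation. Ebi3, a subunit of interleukin 27, followed per length (30.3 RPKM). Tnf had 42.0, 45.2, 36.5 and 38.7 CPM and varied little. Il1b had 105, 34.2, 41.0 and 29.01 CPM and Acod1, which makes itaconate, 88.2, 37.5, 108 and 24.9 CPM; Il1b was highest in replicate 1, and Acod1 higher in replicates 1 and 3. The nitric oxide synthase Nos2 had 1.34, 1.17, 2.05 and 0.626 CPM, and Il6 had 12, 0, 2 and 0 counts. Il12b had at most 1 count in a library. Markers of alternative activation were mixed: Stab1, the endocytic adaptor Dab2 (1831 ± 140.3 CPM), Igf1, Ms4a7 (602 ± 177 CPM) and Mrc1 were high, while Arg1 had 0.142 ± 0.113 CPM and Cd209a no count.

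Genes of the disease-associated state, a program that microglia turn on around plaques and dying neurons, were abundant. Of 30, 24 had at least 100 CPM, and the median was 202 RPKM; Apoe, Ctsb, Ctsd and Tyrobp are also macrophage core genes. Spp1 had 15786, 12536, 11858 and 10813 CPM, Gpnmb 6036, 4411, 5052 and 4639 CPM and Lpl 4341, 6838, 4393 and 6807 CPM, with Spp1 and Gpnmb highest in replicate 1 and Lpl higher in replicates 2 and 4. The cystatin Cst7 (33.8, 13.2, 34.2 and 15.2 CPM) and the integrin chain Itgax (61.7, 23.9, 26.2 and 16.0 CPM), defining genes of that state, were lower, and Lilrb4a had at most 1 count in a library. All 20 genes of lipid loading had at least 1 CPM. They included the lipid droplet protein Plin2 (1089.6 ± 140.1 CPM), the sterol carrier Npc2 (1671 ± 253 CPM) and the acid lipase Lipa (1806 ± 205 CPM), and went down to the desaturase Scd1, at 7.72, 14.6, 2.26 and 12.2 CPM.

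Lysosomal genes were abundant. Of 35 genes 32 had at least 100 CPM and 20 at least 1000 CPM, with a median of 223 RPKM. Their median coefficient of variation (CV, the SD over the mean of the 4 libraries) was 10.5%, and the peptidase Tpp1 had 579, 587, 581 and 579 CPM. Ctsl was an exception at 2337, 1075, 1320.5 and 1044 CPM, highest in replicate 1. Atp6v0c, a subunit of the proton pump, was low, with a mean of 0.542 CPM that was 0.284 CPM without replicate 3. Its level is uncertain, as that of Gapdh is. Antigen presentation through MHC class I was high, with B2m at 3053, 3338, 4319 and 3097 CPM, H2-D1 at 1408 ± 274 CPM and H2-K1 at 935 ± 181 CPM. Class II was low, with H2-Ab1 at 3.66, 0.995, 2.62 and 0.581 CPM and its activator Ciita at 0.944 ± 0.701 CPM.

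Most metabolic and stress genes had at least 1 CPM. These were 19 of 22 genes of glycolysis and hypoxia and 18 of 20 of cholesterol synthesis. Of the unfolded protein response 19 of 20 genes did, and of the oxidative stress response all 21. Glycolysis was led per length by Aldoa (486, 290.5, 324 and 284 CPM), the myeloid hexokinase Hk3 (305 ± 10.8 CPM) and Pkm (407, 267, 279 and 246 CPM), both Aldoa and Pkm highest in replicate 1. By the longest transcript Pkm (123 RPKM) stood above Hk3 (94.6 RPKM). The level of Gapdh, also a gene of glycolysis, is uncertain as described above, so this order may miss genes with copies elsewhere. The haem-degrading Hmox1 had 943, 484, 514 and 565 CPM and Gpx1 411, 231, 280.4 and 249 CPM, and these too were highest in replicate 1, as was the cystine transporter Slc7a11 at 76.7, 8.13, 10.2 and 8.94 CPM. Chaperones of the endoplasmic reticulum were highest in replicate 3, with Calr at 685, 701, 1043 and 647 CPM and Hspa5 at 695, 859, 1228 and 729 CPM. Of 30 genes of the cell cycle, all had at least 1 CPM. Mki67, a mark of dividing cells, had 76.4, 130.1, 144 and 160.5 CPM, Ccnd1, a cyclin that CSF1 is known to raise, 154, 366, 378 and 354 CPM, and the arrest gene Cdkn1a 287, 289, 409 and 278 CPM; Mki67 and Ccnd1 were lowest in replicate 1.

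**Figure D3:**
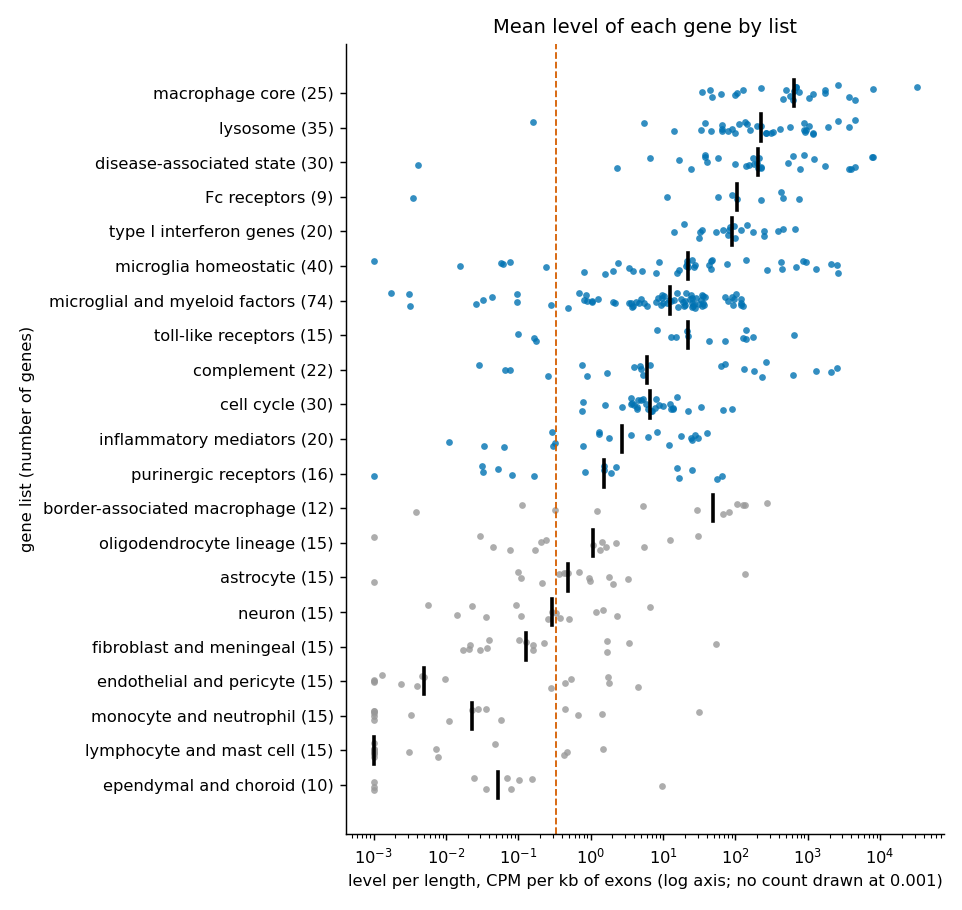
Mean level per length (CPM per kb of exons, log axis) of every gene of 12 lists of myeloid functions (blue) and 9 lists of other cells (grey), with the median of each list as a bar and the median of all protein-coding genes as a dashed line. Macrophage core, lysosome and disease-associated genes lie furthest right. Among lists of other cells, the medians of border macrophage, oligodendrocyte (1.09 RPKM) and astrocyte genes (0.481 RPKM) lie right of the dashed line (0.336 RPKM). The medians of the remaining lists of other cells lie left of it.

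Markers of other cells were not absent, and apart from border macrophage genes (median 48.9 RPKM) most were low beside the macrophage core (649 RPKM). The median was 0.481 RPKM for astrocyte, 1.09 RPKM for oligodendrocyte and 0.288 RPKM for neuronal genes. That of all protein-coding genes was 0.336 RPKM, and 51.6% of these reached 1 CPM. In bulk RNA, fewer cells of a type and less RNA per cell cannot be told apart. Of 15 astrocyte genes 12 had at least 1 CPM, at sums of 469 to 619.8 CPM per library, most of it from Glul (556, 405, 439 and 424 CPM), the glutamine synthetase that macrophages also make. Gfap had 6.87, 9.91, 1.93 and 11.4 CPM, Aqp4 3.52, 2.81, 0.806 and 2.10 CPM and Gjb6 no count. Oligodendrocyte genes summed to 279 to 310.4 CPM with 9 of 15 at 1 CPM or more, mostly Cnp (112 ± 31.6 CPM) and Mbp (106 ± 20.6 CPM). Pdgfra, the mark of oligodendrocyte precursors, had 3.61, 20.9, 0.483 and 18.8 CPM and Olig1 9.64, 17.3, 2.62 and 17.3 CPM, both higher in replicates 2 and 4 than in the others, while Mobp had no count. Neuronal genes summed to 38.4 to 111 CPM with 9 of 15 at 1 CPM or more. Dcx (28.7, 35.1, 13.3 and 38.7 CPM) and Map2 (24.0, 30.2, 8.46 and 33.8 CPM) were their main part, and Nefl itself had 0, 2, 0 and 5 counts. Replicate 3 was lowest for Gfap, Pdgfra, Dcx and Map2.

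Fibroblast genes summed to 1478, 431, 432 and 277 CPM, almost wholly Fn1, which had 1436, 397, 411 and 248 CPM. The collagen Col1a1 was low, at 0.669, 0.0865, 1.89 and 0.0447 CPM, and 5 of 15 genes reached 1 CPM. Endothelial genes summed to 65.0 to 114 CPM from 6 of 15, chiefly Flt1 (31.8, 82.2, 40.5 and 90.4 CPM), while Cldn5 and Tie1 had no count. Of 10 ependymal and choroid plexus genes only Ttr reached 1 CPM in mean, with 0, 1.21, 44.2 and 0.0447 CPM, so that its level was that of replicate 3 alone. Of 12 genes of border macrophages 9 had at least 1 CPM, at sums of 4744 to 7200.2 CPM; Stab1, Ms4a7, Mrc1 and Siglec1 (759 ± 273 CPM) made up most of it, while Lyve1 (0.0112 ± 0.0224 CPM) was under the floor and Cd163 (0.62 ± 0.27 CPM) under 1 CPM. Monocyte and neutrophil genes summed to 127 to 166 CPM, mostly Csf3r (112 ± 18.8 CPM), with S100a9 and Mpo at no count. Lymphocyte and mast cell genes summed to 9.17 to 14.5 CPM, and Cd3e and Fcer1a had no count. The female transcript Xist had 312, 261, 251 and 263 CPM and the Y-linked Ddx3y 68.5, 93.0, 63.6 and 85.8 CPM, so every library held RNA of both sexes.

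The spread between the libraries differed with level and gene group. The median CV over the 4 libraries was 9.00% for genes of at least 10 CPM, and edgeR put the common biological coefficient of variation at 20.1%. Among protein-coding genes the median CV was 23.3% from 1 to 10 CPM, 9.05% from 10 to 100, 8.41% from 100 to 1000 and 12.7% for the 79 genes above that. The lowest CVs among the named genes included those of Tpp1 (0.652%), the ubiquitin ligase Itch (0.6%) and the peptidase Dpp7 (0.512%). These genes were picked as the lowest of many CVs, each from 4 libraries, so values this small can arise by chance. They were not compared with counting error, and do not show that these genes are steadier than others. Of the 8167 protein-coding genes with at least 10 CPM, 142 had a CV over 50%. Of these, 56 (39.4%) were highest in replicate 1 and 61 (42.96%) in replicate 3, and 13 and 12 in replicates 2 and 4. Among all 8167 genes the shares were 28.02% for replicate 1 and 35.8% for replicate 3, and 16.98% and 19.2% for replicates 2 and 4. The share of replicate 3 was thus high among all genes too.

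Of the most variable genes, several were highest in replicate 1. There, the haptoglobin gene Hp had 289, 8.48, 31.8 and 10.1 CPM over the 4 libraries, the dicarboxylate transporter Slc13a3 368, 30.98, 29.3 and 29.1 CPM and Col18a1, a basement membrane collagen, 70.8, 11.1, 8.38 and 8.05 CPM. The prostaglandin synthase Ptges (43.6, 5.28, 8.78 and 5.32 CPM), the lipase Pla2g7 (376, 65.5, 121 and 58.7 CPM) and the crosslinking enzyme Lox (67.0, 14.9, 15.9 and 11.9 CPM) were also highest in replicate 1. Highest in replicate 3 were the chemokines Ccl12 (10.3, 21.0, 82.3 and 6.35 CPM), Ccl2 (19.3, 27.5, 89.1 and 12.2 CPM) and Ccl8 (1.96, 1.69, 18.6 and 0.536 CPM) and the membrane protein Ms4a4c (10.4, 19.99, 66.1 and 11.0 CPM).

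**Figure D4:**
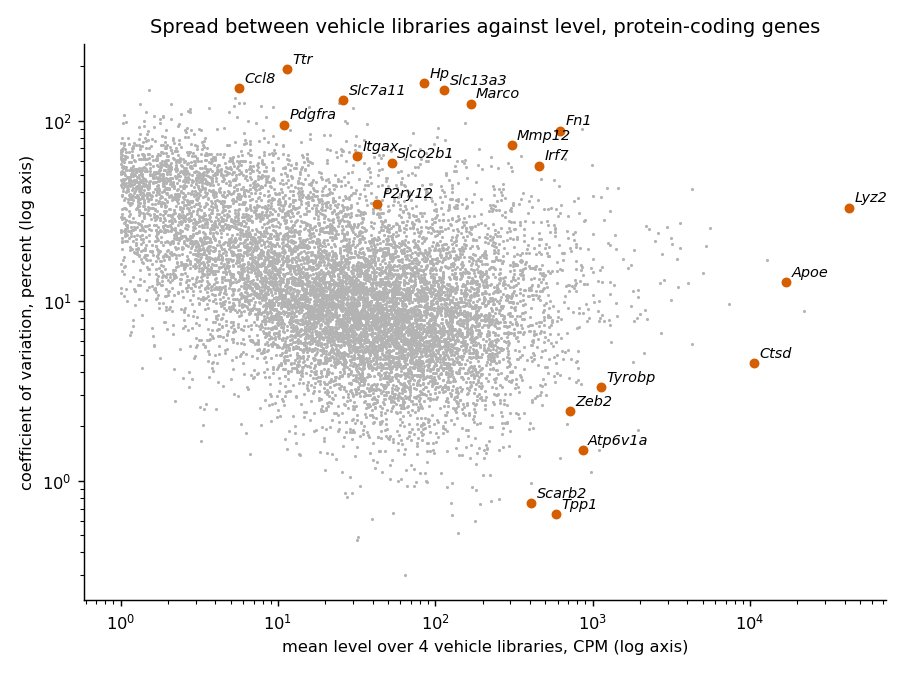
Coefficient of variation over the 4 vehicle libraries (percent, log axis) against mean level (CPM, log axis) of protein-coding genes of at least 1 CPM, with some named genes in orange. Hp, Slc13a3 and Marco lie near the top, Tpp1 and Scarb2 near the bottom, and the abundant Ctsd and Tyrobp below most genes of like level.

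Whether such differences belonged to the batch was asked in the 8 NfL libraries, which had not entered the levels. In edgeR's quasi-likelihood F test of the 3 batch terms, with the NfL form as covariate and Benjamini-Hochberg adjustment, 2753 of 14140 genes (19.5%) differed between batches at an adjusted p under 0.05, and 4847 at an unadjusted p under 0.05. Of protein-coding genes with at least 10 CPM in vehicle, 1662 of 8166 (20.4%) were called, against 125 of 141 (88.7%) of those with a CV over 50% in vehicle and 84 of 1581 (5.31%) of those with a CV under 5%. The batch of the highest vehicle library was also the highest in both NfL forms for 47.2% of the genes of large spread and 24.8% of all those of at least 10 CPM. The count of calls leaned on batch 3, being 1050 without full-length replicate 3 and 1270 without coiled-coil replicate 3. Each batch held a single vehicle library, so batch and replicate cannot be told apart among them.

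Type I interferon genes, the antiviral program set off by interferon alpha and beta, shared their highest library. All 20 had at least 10 CPM and all 20 were highest in vehicle replicate 3, with 14 lowest in replicate 1 and 6 in replicate 4. Of all protein-coding genes of at least 10 CPM, 35.8% were highest in replicate 3, and 29.5% and 23.5% were lowest in replicates 1 and 4. The interferon genes summed to 3973, 7222, 9631 and 4328 CPM in replicates 1 to 4. Ifit2 had 469.7, 1225, 1659 and 591 CPM, the viperin gene Rsad2 133, 444, 620.0 and 207 CPM, Isg15 103, 211, 330.0 and 108 CPM, the tetherin gene Bst2 303, 396, 630.4 and 297 CPM and Ifitm3 393, 408, 682 and 308 CPM. Replicate 2 was second in each of these. Of the list, 17 of 20 differed between batches in the NfL libraries. There, too, batch 1 was lowest, for 18 of 20 genes with full-length and 20 of 20 with coiled-coil NfL, but the highest batch was b3 for 14 and b2 for 6 with the first and b2 for 19 with the second. Chemokines and antigen presentation shared the highest library in vehicle: 13 of 19 chemokines and 14 of 17 presentation genes of at least 1 CPM were highest in replicate 3, and 13 of 19 and 14 of 18 of those tested were called between batches. Of all genes tested, 19.5% were called. In the NfL libraries, with full-length and coiled-coil NfL, 9 and 6 of 19 chemokines and 7 and 4 of 17 presentation genes were highest in b3, and both sums were highest in b2.

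The response element for interferon, in the form GAAANNGAAA on either strand of the 250 bases before a start, was found in 3.46% of the 27025 genes with a RefSeq promoter, and in 7 of the 14 interferon genes of the list that had one (50%). The start of the seventh, Stat2, matched no start in GENCODE M21, so its window is left out. Windows of the other 6 are shown because the list shared its highest vehicle library, 5′ to 3′ along the gene with all matches in capitals, which join where they overlap. They lie at chr19:34640755-34640824 (Ifit1) and chr19:34583343-34583416 (Ifit3) on the plus strand, and at chr4:156200857-156200926 (Isg15), chr5:120907526-120907575 (Oas1a), chr12:26456533-26456602 (Rsad2) and chr8:71537563-71537632 (Bst2) on the minus strand of GRCm38.p6.
Ifit1: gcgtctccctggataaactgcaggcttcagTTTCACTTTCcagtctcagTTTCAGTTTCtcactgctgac
Ifit3: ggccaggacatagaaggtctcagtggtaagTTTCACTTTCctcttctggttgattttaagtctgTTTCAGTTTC
Isg15: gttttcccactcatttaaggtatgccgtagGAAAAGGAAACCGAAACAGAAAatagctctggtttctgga
Oas1a: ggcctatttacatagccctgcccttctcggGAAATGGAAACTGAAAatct
Rsad2: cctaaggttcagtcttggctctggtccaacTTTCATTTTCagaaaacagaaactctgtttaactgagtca
Bst2: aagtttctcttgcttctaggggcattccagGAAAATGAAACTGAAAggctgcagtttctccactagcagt
In Ifit1, Ifit3 and Rsad2 the letters read on the other strand, as TTTCNNTTTC. Counts of Ifit3 and Oas1a are less certain, as 48.8% and 42.4% of their windows of 50 bases occur in no other gene. Of the 100 genes highest per length, 9 of 71 with a promoter held the letters.

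Other groups set replicate 1 or replicate 3 apart. For comparison, 28.02% of all protein-coding genes of at least 10 CPM were highest in replicate 1 and 29.5% were lowest there. In replicate 3, 24.0% were lowest. Between batches, 19.5% of all genes tested were called. Genes of cholesterol synthesis summed to 1348, 1062, 723 and 1036 CPM, with 17 of the 18 members of at least 1 CPM highest in replicate 1 and 15 lowest in replicate 3. Msmo1 had 168, 124, 69.5 and 125 CPM, Insig1, which senses sterols, 92.7, 57.8, 42.4 and 67.3 CPM, and Hmgcs1, the synthase at the start of the pathway, 140.5, 105, 68.4 and 108 CPM. In both NfL forms, too, the sum was highest in b1 and lowest in b3. There 15 and 16 of the 18 were highest in b1 and 16 and 17 lowest in b3, and 13 of 19 genes were called between batches. Genes of the oxidative stress response summed to 4759, 2986, 3393 and 3212 CPM with 18 of 21 highest in replicate 1, and 12 of 21 were called. With full-length NfL the sum was highest in b2, and 10 of 21 were highest in b1 and 8 in b2. With coiled-coil NfL 13 were highest in b1. Genes of the cell cycle summed to 1123, 1773, 2009.5 and 1906 CPM, with 26 of 30 lowest in replicate 1; 16 of 30 were called. In the NfL libraries b2 was lowest for 24 of 30 genes with full-length and 17 of 30 with coiled-coil NfL, and 24 and 22 were highest in b3. With full-length NfL the sum was also lowest in b2 (1245 CPM). With coiled-coil NfL 12 genes were lowest in b1, and the sum was lowest there (1319 CPM, against 1605 CPM in b2).

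Of lysosomal genes 8 of 34 (23.5%) were called between batches, a share near that of all genes (19.5%). The share was 36.0% for the macrophage core, 37.1% for homeostatic genes, 62.1% for the disease-associated state and 85.0% for interferon genes. Markers of other cells differed between batches as well, and their part in these differences was not tested. Neuronal genes summed to 87.8, 97.5, 38.4 and 111 CPM in replicates 1 to 4, with 8 of the 9 of at least 1 CPM lowest in replicate 3, and 6 of 10 were called. Of the astrocyte genes of at least 1 CPM 9 of 12 were lowest in replicate 3, 8 of 13 of those tested were called, and of the oligodendrocyte genes 10 of 12 were. Of all protein-coding genes of at least 10 CPM, 24.0% were lowest in replicate 3.

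**Figure D5:**
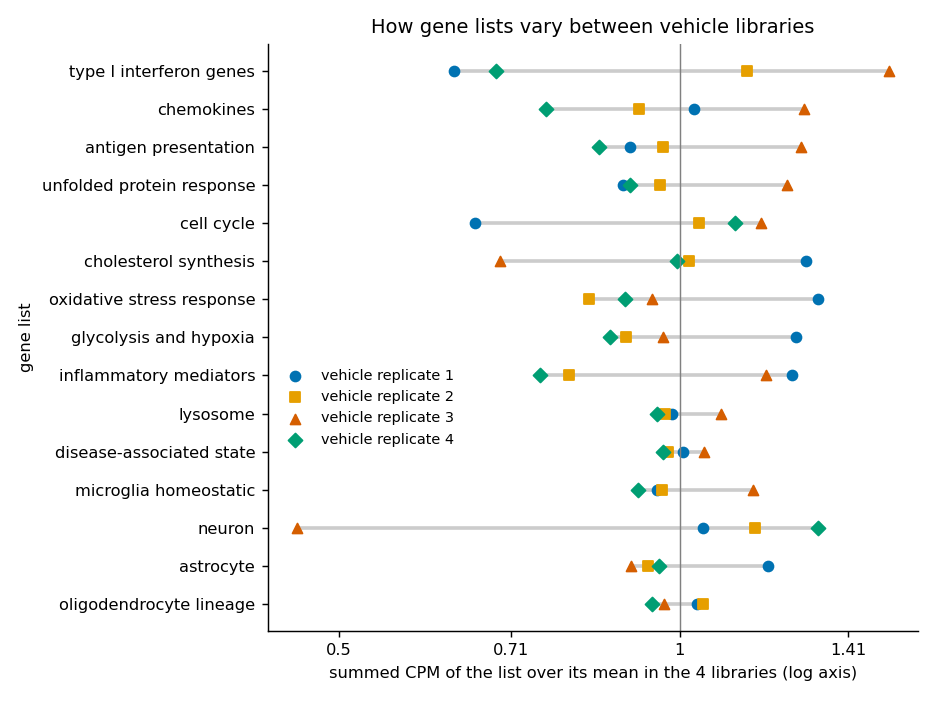
Summed CPM of 15 gene lists in each vehicle library, divided by the list's mean over the 4 libraries (log axis), 1 symbol per library. Interferon and cell cycle lists are lowest in replicate 1, cholesterol synthesis is highest in replicate 1 and lowest in replicate 3, neuronal genes are lowest in replicate 3, and the lysosome and disease-associated lists lie close to 1.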

How the data were processed

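The file the authors deposited holds raw counts per Ensembl mouse gene for 12 libraries, with no normalization; reads were aligned to GRCm38 with GSNAP, per the submitters' processing notes. The aligner's version, the annotation, whether counting used strand and by what tool: these were not given in the sources used here. Per the labels' protocols, a stranded kit for polyadenylated RNA and single reads of 50 bases were used. Of 52636 gene identifiers 99.7% matched GENCODE M21 (GRCm38), which gave symbols, positions and exon lengths; identifiers without a match held 0.00713% of vehicle counts. Depth was 21370879 to 26129375 counts, so that 3 counts are 0.121 to 0.134 CPM. TMM factors (0.950 to 1.05) and CPM came from edgeR 4.0.16 (R 4.3.3). The batch test used filterByExpr (minimum count 10) and left 3 residual degrees of freedom, and was tested on simulated data. DESeq2 1.42.0 served alternatives.

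The 42 gene lists (871 genes), the rule for named genes and the 4 libraries were chosen with earlier results of these data known. The rule names the 15 protein-coding genes highest by CPM and by RPKM, from each list the 5 highest per length, the lowest and the most variable (all members of lists of at most 12 genes, and of other cells all of at least 1 CPM), the 12 most and 8 least variable genes of at least 10 CPM, and 51 fixed genes. Gpr34, Sall3, Zeb2, Crybb1, Ecscr, Slc2a5, Lag3, Scarb2, Laptm5, Ifit1, Ifit3, Oas1a, Col1a1, Cldn5, Tie1, Mpo, S100a9 and Cd3e were named after their values were seen. Alternatives were total-count and DESeq2 scaling, leaving out each library, transcript length, filters, all 12 libraries and another test. No treatment was compared. A few genes of the lists count in the summaries but are not reported here by name.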

Additional observations from a re-analysis of the deposited data

Results flagged for a closer look

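For the genes described here with at least 1 CPM and for the summed level of each list, the library farthest from the rest was marked when its gap to the nearest of the other 3 took up more of the whole range than Dixon's limit for 4 samples allows. Of 175 genes, 20 were marked, always for replicate 1 (12 genes) or replicate 3 (8 genes). Some of the 175 were named because of their large spread over these same libraries. Their share of marks therefore cannot be read against chance or against all genes. Chance marks about 1 group in 20, and of all 8167 protein-coding genes of at least 10 CPM 454 (5.56%) were marked, 196 for replicate 1, 39 for replicate 2, 189 for replicate 3 and 30 for replicate 4. High in replicate 1 were Cd14 (1752 CPM), Col18a1 (70.8 CPM), Cxcr4 (166 CPM), Fn1 (1436 CPM), Hp (289 CPM), Il1b (105 CPM), Lox (67.0 CPM), Mbp (137 CPM), Ptges (43.6 CPM), Slc13a3 (368 CPM) and Slc7a11 (76.7 CPM). Low in replicate 1 was Ccnd1 (154 CPM). High in replicate 3 were Aif1 (237 CPM), Calr (1043 CPM), Ccl8 (18.6 CPM), Cdkn1a (409 CPM), Mrc1 (1195 CPM), P2ry13 (55.1 CPM), P2ry6 (242 CPM) and Ttr (44.2 CPM).  Of the 42 summed lists, 4 were marked. Fibroblast genes (1478 CPM, mostly Fn1) and monocyte and neutrophil genes (166 CPM) were high in replicate 1, and housekeeping genes (10234 CPM) and ependymal genes (46.4 CPM, from Ttr) were high in replicate 3.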

How the results depend on the processing

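With total-count or DESeq2 scaling, all values changed by less than their spread. Leaving out single vehicle libraries gave 12.8% to 13.6% of counts in the highest 10 genes and 27.6% to 28.2% in the highest 100, 12567 to 12719 genes of at least 1 CPM, 2125 to 2148 of at least 100 CPM, a median CV of 7.50% to 9.51% and a biological coefficient of variation of 16.5% (without replicate 3) to 22.5%. The median CV was 11.8% for genes of at least 1 CPM, and 12457 genes of at least 1 CPM passed filterByExpr. The genes that differed between batches numbered 3550 over all 12 libraries, 2782 with DESeq2 size factors, 2810 by DESeq2's likelihood ratio test and 4618 with no filter on low counts, where the cause was not tested. Leaving out single NfL libraries gave 1050 (full-length replicate 3) to 3506 (full-length replicate 1); 1270, 1805 and 1771 were left without coiled-coil replicate 3, full-length replicate 4 and coiled-coil replicate 4, fits in which 1 batch has a single library. With the longest transcript as length, 72 described genes moved in rank by more than the SD of their ranks over the libraries and 138 did not; Ptprc moved from rank 1197 to 381, Lpl from 44 to 22 and Mef2c from 2047 to 1025. No paired analysis was possible because levels of 1 group are described and the batch, which equals the replicate number, is itself the term tested. With 4 libraries the spread of a single gene is poorly known, and levels of genes with copies elsewhere depend on how the authors counted shared reads.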
